A study of Mus musculus with 8 samples.

Results

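The genes described here were 10 immediate early genes: the EGR genes Egr1, Egr2 and Egr3, the FOS genes Fos, Fosb, Fosl1 and Fosl2, the JUN genes Jun and Junb, and the nuclear receptor gene Nr4a1. They were picked by gene symbol from the 55359 genes of the count table, and all 10 were found, once each. They were selected on the difference between the peritoneal mast cell (PMC) lines and primary PMCs in these data, so that difference is given for them as a description, with no test. Most were higher in both lines, and far higher in PMC-306 than in PMC-303, while Jun, Fosl2 and Fosl1 were not.

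RNA was sequenced from 8 untreated mouse cultures of wild-type genotype and mixed C57BL/6x129/Sv background. PMC-303 and PMC-306 are lines that arose spontaneously in ageing, neglected PMC cultures, and each gave 1 library. The other 6 libraries came from primary PMCs, 3 from female and 3 from male mice. The study kept the lines in less stem cell factor and less serum than the primary cells, so line and medium cannot be told apart. Total counts ran from 15918745 to 24180207 per library. Levels are given in CPM, counts scaled by a library size adjusted with the trimmed mean of M values, and 3 counts correspond to between 0.123 and 0.187 CPM, a limit that covers counting error only. Because each line has 1 library, a value of a line has no replicate check. In bulk RNA, fewer cells that use a gene and less RNA of it per cell cannot be told apart.

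Immediate early genes are transcribed within minutes of a growth factor, cytokine or antigen signal, from factors already present in the cell, and their short-lived mRNAs fade again when the signal ends. FOS proteins pair with JUN proteins to form the transcription factor AP-1, whereas EGR proteins are zinc finger factors that bind GC-rich sites. In mast cells both families are known to be induced after engagement of KIT or of the IgE receptor. Much of this induction runs through ERK, which acts on serum response factor (SRF) and its partners at a promoter element called the CArG box.

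The CArG box was searched in the 500 bases before the annotated start of each gene (GENCODE M39, build GRCm39, both strands), and it was present in 4 of the 10 promoters, against 2.76% of 21757 protein-coding promoters of the same length. The 4 were Egr2, Egr3, Fos and Fosb. These genes, with Egr1, are the 5 members that stood highest above the primary cells in PMC-303, and the stretches of Egr2, Fos and Fosb are shown for that reason. The members had been selected on that same contrast, and a relation between boxes and fold was not tested. Each stretch has 150 bases on the strand of the gene, from chr10:67373542-67373691 (plus strand) for Egr2, chr12:85520285-85520434 (plus) for Fos and chr7:19044163-19044312 (minus) for Fosb. Capitals mark the box and, past it, the letters CGTCA, a partial site of CREB and AP-1 proteins.
Egr2: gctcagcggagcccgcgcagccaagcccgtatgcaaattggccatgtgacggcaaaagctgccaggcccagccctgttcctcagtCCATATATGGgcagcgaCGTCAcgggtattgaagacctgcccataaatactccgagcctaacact
Fos: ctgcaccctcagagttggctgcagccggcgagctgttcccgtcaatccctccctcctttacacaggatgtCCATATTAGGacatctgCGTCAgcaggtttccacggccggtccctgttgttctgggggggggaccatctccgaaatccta
Fosb: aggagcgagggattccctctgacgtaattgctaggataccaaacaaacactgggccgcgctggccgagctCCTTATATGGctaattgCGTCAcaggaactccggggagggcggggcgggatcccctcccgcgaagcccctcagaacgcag
In these 3 stretches CGTCA started 7 bases past the box, an arrangement noticed in the printed sequences. It was then counted in all 21757 promoters, on either strand, and found in 6 of them, or 0.0276%. Those of the MAPK phosphatase gene Dusp5 and the kinase gene Sik3 were among them. Egr2 held another box at position -368 from its start, without CGTCA at that distance.

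For Egr1 no box lay in the 500 bases before the annotated start, but that start belongs to a transcript that took 17.8% of the Egr1 counts of the primary cells, and the transcript that took the remaining 82.2% is not in the annotation used. Within 2000 bases on either side of the annotated start, Egr1 had 5 boxes, between 977 and 1301 bases after it, of which 1 had CGTCA 7 bases past the box. Junb had 1 box at position -1450, and Jun, Fosl1, Fosl2 and Nr4a1 had none. For Nr4a1 this holds at the start of Nr4a1-201 and at that of Nr4a1-202, the transcript with most Nr4a1 counts in PMC-303 and the primary cells, which was searched after the data were seen. Of all promoters, 18.5% held a box within this wider window. The exact letters TGACGTCA (cAMP response element), TGAGTCA (AP-1 site) and GCGTGGGCG (EGR site) were found in none of the 10 promoters of 500 bases, against 1.96%, 7.57% and 0.731% of all promoters. A match is a description of the sequence, and binding was not measured.

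**Figure D1:**
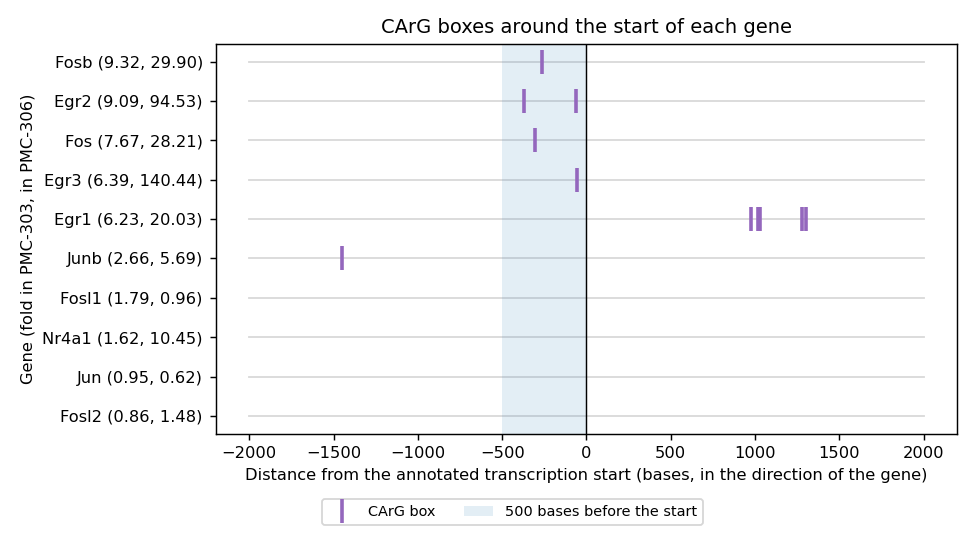
Positions of CArG boxes (purple ticks) within 2000 bases on either side of the annotated start of each gene, with the distance in bases on the x axis and the genes ordered by their fold in PMC-303, whose value and that of PMC-306 stand beside each name. Fos, Fosb, Egr2 and Egr3 have boxes in the 500 bases before the start (shaded), Egr1 has 5 between 977 and 1301 bases after it.

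The 3 EGR genes were low in primary PMCs and higher in both lines. Egr1 is the member of the family most widely used as a mark of recent ERK signalling. Its level ran from 1.31 to 21.3 CPM in the 6 primary cultures, with a median of 14.5, and reached 80.0 in PMC-303 and 257 in PMC-306. Both lines therefore lay above every primary culture, PMC-303 by 3.76-fold and PMC-306 by 12.1-fold over the highest of them. Against the primary mean of 12.8 ± 8.13 CPM (SD, n = 6), the log2 fold (with 0.1 CPM added to each level) was 2.64 in PMC-303 and 4.32 in PMC-306.

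Egr2 and Egr3 differed more between the lines than Egr1 did. Egr2, known from myeloid and T cell differentiation and from myelination, ranged from 0.105 to 0.746 CPM in the primary cultures (median 0.395). PMC-303 had 4.65 and PMC-306 49.3 CPM, which is 10.6 times the level of the other line. Egr3, a close relative of Egr2 in sequence and targets, had between 0.0879 and 1.80 CPM in the primary cultures (median 0.877). PMC-303 had 6.22 and PMC-306 138.7 CPM, a ratio of 22.3 between the lines. The log2 folds against the primary mean were 3.18 and 6.56 for Egr2 and 2.68 and 7.13 for Egr3, in PMC-303 and PMC-306 respectively. Egr3 ranked 8th and Egr2 17th in fold among the 13303 genes with at least 1 CPM in a line or in the primary mean in PMC-306. The lowest primary values of Egr2, at 2 counts in male culture 3, and of Egr3, at 2 counts in female culture 2, lie under the 3-count limit.

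Fos and Fosb followed the same order of libraries. Fos, the partner that gives AP-1 its rapid response, ranged from 0.157 CPM (3 counts) to 2.89 CPM in the primary cultures, with a median of 0.761. PMC-303 had 9.96 and PMC-306 36.9 CPM, so that both lines were above all primary cultures. Fosb, whose product also exists in a short, stable form, ranged from 0.367 to 2.43 CPM (median 1.24) in the primary cultures. PMC-303 had 13.01 and PMC-306 41.9 CPM, again above every primary culture. The log2 folds were 2.94 and 4.82 for Fos and 3.22 and 4.90 for Fosb.

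Fosl1 and Fosl2, which encode the FOS-related antigens, did not share this pattern. Fosl1 had 11 counts in PMC-303, 4 in PMC-306 and between 2 and 8 in the primary cultures, too few to rank the libraries. Fosl2 was abundant everywhere, with 94.6 to 114.0 CPM in the primary cultures (median 102.5). PMC-303 had 89.4 CPM and PMC-306 had 153 CPM, which is 1.35 times the highest primary culture. The value of PMC-303 lay below the lowest primary culture in CPM, but within the primary range by library totals (93.6 CPM against 89.0 to 115.2) and in TPM (16.9 against 15.7 to 20.9).

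Of the JUN genes, Junb was raised and Jun was not. Junb ranged from 40.8 to 54.0 CPM in the primary cultures (median 50.2), a spread of only 1.32-fold, and reached 130.2 in PMC-303 and 278 in PMC-306. Both lines lay above all primary cultures, with log2 folds of 1.41 and 2.51. Jun, which encodes the most strongly activating JUN protein, ranged from 32.7 to 73.9 CPM (median 42.3). PMC-303 had 44.5 CPM, within the primary range, and PMC-306 28.9 CPM, below the lowest primary culture.

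Nr4a1, an orphan nuclear receptor induced by the same signals, ranged from 1.32 to 2.68 CPM in the primary cultures (median 1.88). PMC-303 had 3.17 CPM, only 1.18 times the highest primary culture, and PMC-306 had 21.0 CPM. The log2 folds were 0.69 and 3.39, so that PMC-306 had 6.63 times the Nr4a1 level of PMC-303.

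**Figure D2:**
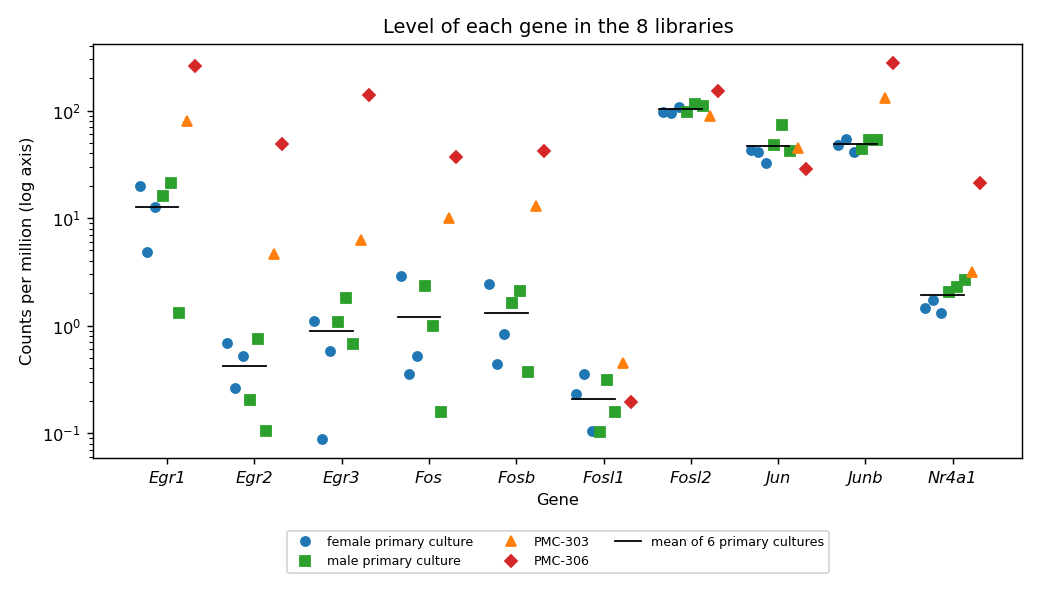
Level of each gene in CPM (log axis) in the 3 female (circles) and 3 male (squares) primary cultures, PMC-303 (triangles) and PMC-306 (diamonds), with a bar at the mean of the 6 primary cultures. For Egr1, Egr2, Egr3, Fos, Fosb, Junb and Nr4a1 both lines sit above all 6 primary cultures, and for Jun PMC-306 sits below them.

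Taking the 10 genes together, 7 were above all 6 primary cultures in both lines and none was below them in both. Among all 13303 genes with at least 1 CPM in a line or in the primary mean, 24.8% were above all 6 primary cultures in both lines. By size, 5 members (Egr1, Egr2, Egr3, Fos and Fosb) were at least 5-fold above the primary mean in both lines, as were 2.46% of the 13303 genes. With 1 CPM in place of 0.1 CPM added to each level, 2 members (Egr1 and Fosb) were. The members were chosen for this contrast, so these shares are given side by side and nothing is read from them. In 8 of the 10 genes PMC-306 was higher than PMC-303, the exceptions being Jun and Fosl1. The share of all genes that did so was not computed, and each line has 1 library, so nothing is read from this count. The median log2 fold over the members was 2.03 in PMC-303 and 3.85 in PMC-306, beside 0.02 and -0.01 over the 13303 genes.

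Single primary cultures compared with the other 5 show how far these genes moved among primary cells. The highest such log2 fold was 1.62, for Fos, and the lowest was -3.42, for Egr1. For each of the 7 genes raised in both lines, the value of each line lay above the highest value of a single primary culture, narrowly so for Nr4a1 in PMC-303 (0.69 against 0.57). These 7 are the genes in which both lines exceeded every primary culture, so this follows largely from how they were counted and is no further check.

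**Figure D3:**
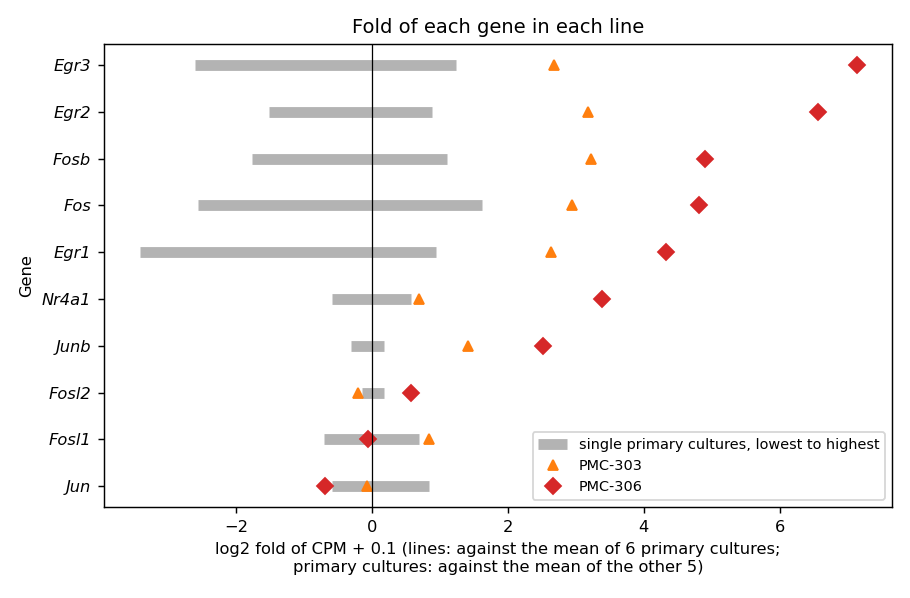
log2 fold of each gene in PMC-303 (triangles) and PMC-306 (diamonds) against the mean of the 6 primary cultures, with grey bars from the lowest to the highest log2 fold of a single primary culture against the other 5. PMC-306 reaches 7.13 for Egr3, and Jun is at -0.69 in PMC-306.

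Levels of different genes can be compared in TPM, a unit that accounts for transcript length. In the primary cultures Junb led with 29.5 ± 3.52 TPM (SD, n = 6), above Fosl2 at 17.9 ± 2.17 and Jun at 15.4 ± 5.37, whose ranges overlapped, and then Egr1 at 4.29 ± 2.78. The lowest Junb value, 25.9 TPM, was above the highest of Fosl2, 20.9, and the lowest of Jun, 11.1, was above the highest of Egr1, 7.42. The other 6 genes were below 1 TPM on average, and neighbours in that order overlapped in range. In PMC-306 the order was Junb (192 TPM), Egr1 (94.3), Egr3 (42.7), Fosl2 (32.2), Fos (25.2), Egr2 (24.5), Nr4a1 (14.8), Fosb (13.3), Jun (10.6) and Fosl1 (0.128). In PMC-303 Junb (88.3 TPM) and Egr1 (28.1) also came first, followed by Fosl2 (16.9) and Jun (15.8).

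The make-up of the families also differed between lines and primary cells. Fosl2 supplied 93.8% ± 4.59 (SD, n = 6) of the summed TPM of the FOS genes in primary PMCs, 58.2% in PMC-303 and 45.5% in PMC-306. Fos supplied 3.53% ± 3.48 in primary PMCs, with a maximum of 8.42%, against 26.9% and 35.6% in the lines. Within the pair of JUN genes, Junb made up 66.3% ± 5.29 in primary PMCs, 84.8% in PMC-303 and 94.8% in PMC-306. Egr3 made up 26.4% of the EGR transcripts of PMC-306 and 7.10% of those of PMC-303, both within the primary range of 3.42% to 26.9%. Egr2 made up 10.2% in PMC-303 and 15.2% in PMC-306, above the primary maximum of 7.59%. Egr1 made up 82.7% in PMC-303, within the primary range of 66.9% to 93.5%, and 58.4% in PMC-306, below it. The highest Egr3 share and the lowest Egr1 share were both those of male culture 3, which had 25 Egr1 and 13 Egr3 counts. In every other primary culture the Egr3 share was below that of PMC-306. The Egr1 share was above that of PMC-303 in each of them. The mean Egr3 share in primary PMCs was 8.79% ± 8.99.

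At the level of transcripts, Nr4a1 differed between the lines in kind as well as in amount. The gene has annotated starts 12680 bases apart on chromosome 15, at position 101151980 for transcript Nr4a1-202 and at 101164660 for Nr4a1-201. In PMC-306, 372.9 of the Nr4a1 counts (87.1%) were assigned to Nr4a1-201, and 1.63% to Nr4a1-202. In PMC-303 Nr4a1-201 had 0 counts and Nr4a1-202 held 93.2%. All 6 primary cultures had 0 counts for Nr4a1-201, and Nr4a1-202 held 96.3% of their pooled counts. These are estimates that divide reads among overlapping transcripts, with 1 library behind each line.

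Transcripts annotated as retaining an intron took part of the counts of several members. For Fosb, the retained-intron transcript Fosb-204 had 87.1% of the counts in PMC-303, 61.5% in PMC-306 and 60.6% in the pooled primary cultures. For Egr3, Egr3-202 had 80.7%, 70.0% and 35.1%, the last from 100 counts in all. For Fosl2, the retained-intron transcript Fosl2-202 rested on more reads, with 12.2% in PMC-306, 6.54% in PMC-303 and 3.13% to 6.20% in the primary cultures. Jun has no intron, and all its counts fell on 1 transcript.

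Differences among the primary cultures played no part in choosing the genes and could be examined on their own. Egr1 had a coefficient of variation of 0.638 over the 6 cultures, above that of 96.7% of the 2066 genes whose primary mean lay within 1.5-fold of its own, for which the median was 0.121. For Fos it was 0.940, above 93.8% of 1314 such genes (median 0.330), and for Jun 0.304, above 94.99% of 2537 genes (median 0.0800). Fosl2, at 0.0810, was close to the median of 0.0788 of its 1696 genes. The corresponding shares of genes with a lower coefficient were 86.7% for Fosb, 84.1% for Egr3, 74.8% for Egr2, 72.6% for Junb, 45.4% for Nr4a1 and 30.5% for Fosl1. The Jun coefficient rests in part on male culture 2, which had 73.9 CPM against 48.2 CPM in the next culture. Male culture 3 had the lowest Egr1, Egr2, Fos and Fosb values of all libraries, with 1.31, 0.105, 0.157 and 0.367 CPM, while its Junb level of 53.0 CPM was above the primary median.

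Egr1, Egr2, Egr3, Fos and Fosb tended to be high in the same primary cultures, although no pair of genes passed the correction for 45 pairs. Over the 6 cultures the strongest relation by p was that of Egr1 and Fosb, with Pearson r = 0.903 (exact permutation p = 0.00278, adjusted p = 0.125) and Spearman rho = 0.943 (exact permutation p = 0.0167, adjusted p = 0.375). The first of these p-values is the smallest that the permutations can give. Without the 2 cultures farthest from the Egr1 median, r was 0.958. For Fos and Fosb, r was 0.915 (exact permutation p = 0.0194, adjusted p = 0.354) with rho = 0.943 (exact permutation p = 0.0167, adjusted p = 0.375), and r was 0.802 without the 2 farthest cultures. For Egr1 and Fos, r was 0.843 (exact permutation p = 0.0236, adjusted p = 0.354) with rho = 0.829 (exact permutation p = 0.0583, adjusted p = 0.375), falling to 0.533 without the 2 cultures farthest in Egr1, on which it therefore rests in part. All 10 pairs among these 5 genes had r above 0, from 0.393 to 0.915 with a median of 0.738. The median over the 45 pairs, which include these 10, was 0.293. Without the 2 farthest cultures, r of Egr2 fell with Egr1 (0.810 to 0.443), Fosb (0.721 to 0.394), Fos (0.513 to 0.177) and Egr3 (0.393 to 0.336). For Egr3, r rose with Egr1 (0.505 to 0.918), Fos (0.552 to 0.868) and Fosb (0.756 to 0.810).

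**Figure D4:**
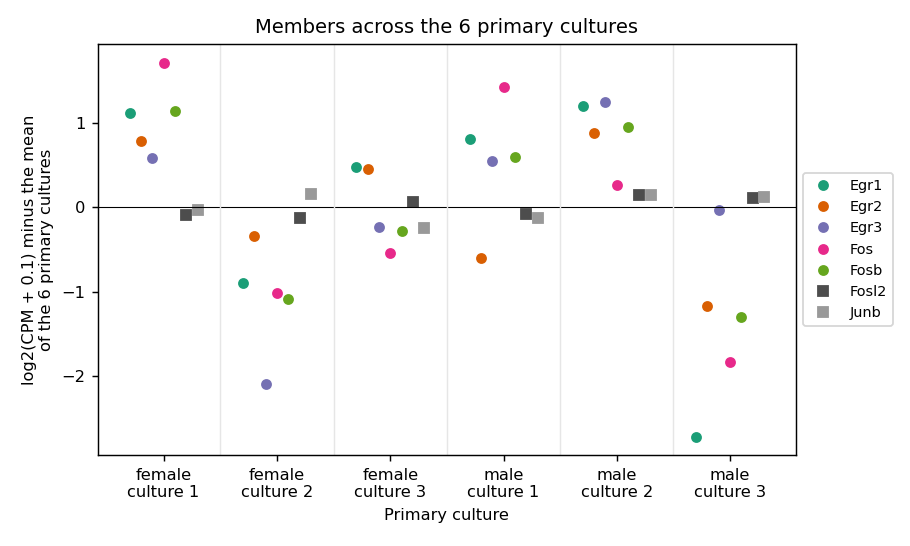
log2(CPM + 0.1) of Egr1, Egr2, Egr3, Fos and Fosb (circles) and of Fosl2 and Junb (squares) in each primary culture, minus the mean of the 6 cultures for that gene. The 5 genes in circles spread widely, with Egr1 at 1.31 CPM in male culture 3 against a median of 14.5 CPM, while Fosl2 and Junb stay close to 0.

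The sex of the mice was tested as a contrast that had not been used to choose the genes. Of the 9 members with enough counts to test (Fosl1 was not among them), none differed between the 3 female and the 3 male cultures by limma with Benjamini-Hochberg adjustment over 13692 genes, of which 6 (0.0438%) were called. At an unadjusted p under 0.05 there was 1 member, and 456 of all genes. That member was Nr4a1, with 1.5005 ± 0.199 CPM in female and 2.34 ± 0.317 CPM in male cultures (SD, n = 3 each). Its female values, at most 1.71 CPM, lay below its male values of at least 2.04 CPM. The log2 difference, female minus male, was -0.61 with a standard error of 0.23 (limma, unadjusted p = 0.0347, adjusted p = 1.00).

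Genes related to the members were tested in the same fit of the 2 lines against the 6 primary cultures with limma on log2(CPM + 0.1), in which 18.3% of 14524 genes were higher and 15.5% lower in the lines (adjusted p under 0.05). The 2 lines act as the replicates of one arm. The fit tests their mean, so 1 line can carry a call, and where leaving out 1 library ends the call of a named gene this is said beside it. Adjusted p-values are those of limma over all 14524 genes, and the median log2 fold over all of them was -0.01.

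The genes that regulate or resemble EGR proteins gave 2 higher and 1 lower of 3 tested, with a median log2 fold of 0.40, and 1 call (higher) without PMC-303. Nab2, a corepressor that binds EGR proteins and is itself an EGR target, rose from 3.15 ± 0.851 CPM (SD, n = 6) to 18.4 in PMC-303 and 22.3 in PMC-306 (log2 fold 2.69, SE 0.27, adjusted p = 0.000229). Its relative Nab1 rose by less, from 111 ± 7.88 to 152 and 141 CPM (adjusted p = 0.00782, and 0.0542 without PMC-303). Nr4a2, a relative of Nr4a1, fell from 2.64 ± 0.962 to 0.741 and 1.08 CPM (adjusted p = 0.0263). Without PMC-303 its adjusted p was 0.147, and without PMC-306 it was 0.0554. Egr4 and Nr4a3 had too few counts to test.

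Of the other AP-1, ATF and MAF factors, 1 was higher and 5 were lower of 10 tested, with a median log2 fold of -0.21, and 1 higher and 2 lower without female culture 1. Atf4, the main factor of the integrated stress response, rose from 169 ± 15.4 CPM to 281 in PMC-303 and 268 in PMC-306 (log2 fold 0.71, SE 0.10, adjusted p = 0.00107). Batf, a JUN partner that lacks an activating domain, fell from 56.3 ± 4.86 to 38.5 and 23.6 CPM (adjusted p = 0.00449). Mafk, a small MAF protein, fell from 79.7 ± 6.87 to 63.6 and 45.3 CPM (adjusted p = 0.0124, and 0.102 without PMC-306). Maf fell from 11.4 ± 4.24 CPM to 0.0412 (under the 3-count limit) and 4.66 CPM (adjusted p = 0.0284), and its call was lost without PMC-303 (0.136), female culture 1 (0.0528) or male culture 1 (0.0525). Jdp2, a repressor that dimerizes with JUN proteins, fell from 35.5 ± 6.32 to 26.3 and 11.0 CPM (adjusted p = 0.0288), a call lost without PMC-306 (0.241), female culture 1 (0.0511), male culture 1 (0.0534) or male culture 2 (0.0513). Atf7 fell from 32.5 ± 3.24 to 22.7 and 26.6 CPM (adjusted p = 0.0340). The Atf7 call was lost without PMC-303 (0.209), female cultures 1 (0.0625) or 3 (0.0548), or male cultures 2 (0.0640) or 3 (0.0599). Jund, the JUN gene usually present without stimulation, had 66.3 and 54.9 CPM in the lines against 57.4 ± 12.3 CPM (adjusted p = 0.748). Atf3, itself an immediate early gene in many cells, had at most 0.0982 CPM in the lines and was not tested.

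Of 26 other immediate early genes tested, 2 were higher and 2 lower, and 13 had a log2 fold above 0, with a median of 0.01. Without PMC-303, 7 were called, 6 of them higher, and 2 of the 7 were shared with the full fit. Of the 34 listed genes, 6 lay above all primary cultures in both lines, beside 24.8% of the 13303 genes with at least 1 CPM in a line or in the primary mean. Some listed genes did not reach that level, and nothing is read from this count. The list was not tested against the members. Ier2, a short gene of the early growth response, rose from 25.9 ± 4.58 CPM to 125 in PMC-303 and 253 in PMC-306 (log2 fold 2.79, SE 0.26, adjusted p = 0.00018). Zfp36, whose product promotes decay of AU-rich mRNAs, rose from 0.563 ± 0.298 to 1.98 and 8.004 CPM (log2 fold 2.78, SE 0.66, adjusted p = 0.0126, and 0.127 without PMC-306). Gadd45a, a growth arrest gene, fell from 10.5 ± 2.86 to 0.288 and 5.20 CPM (adjusted p = 0.0253, and 0.0992 without PMC-303). Zfp36l2, related to Zfp36, fell from 278 ± 22.4 to 180 and 222 CPM (adjusted p = 0.0109, and 0.0936 without PMC-303). Myc had 45.1 and 66.2 CPM in the lines against 47.7 ± 4.07 in the primary cultures (adjusted p = 0.319), and Ier3 had 260 and 493 CPM against 350 ± 34.5 (adjusted p = 0.908).

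Upstream regulators of these genes gave 6 higher and 6 lower of 30 tested, with a median log2 fold of -0.02. Srf itself rose from 19.7 ± 1.90 CPM to 26.3 in PMC-303 and 27.2 in PMC-306 (log2 fold 0.44, SE 0.11, adjusted p = 0.0160), a call that was lost without PMC-303 (0.0549) or PMC-306 (0.0799). Mapk14, which encodes p38 alpha, rose from 102 ± 5.60 to 152 and 148 CPM (adjusted p = 0.000671). Rps6ka2, an RSK kinase gene, fell from 45.4 ± 14.1 to 16.4 and 1.73 CPM (log2 fold -2.99, SE 0.69, adjusted p = 0.0110). Rps6ka1, another RSK gene, fell from 320 ± 39.8 to 215 and 232 CPM (adjusted p = 0.0139, and 0.0830 without PMC-303). Mef2a fell from 88.3 ± 5.46 to 60.999 and 51.1 CPM (adjusted p = 0.000979), and the SRF coactivator gene Mrtfb from 34.0 ± 3.35 to 23.7 and 21.8 CPM (adjusted p = 0.00449). The ERK gene Mapk3 was not called, with 67.0 and 45.2 CPM in the lines against 41.7 ± 4.66 (adjusted p = 0.0853).

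MAPK phosphatases, which switch the pathway off and are themselves ERK-induced in part, gave 0 higher and 1 lower of 8 tested, with a median log2 fold of -0.20. The count of calls was 4 without PMC-303 (1 higher, 3 lower), 0 without PMC-306, and 2, both lower, without female culture 1 or without female culture 2. At an unadjusted p under 0.05, limma gave 1 higher (Dusp5) and 4 lower (Dusp4, Dusp8, Dusp10 and Dusp16), where 22.8% of all 14524 genes were higher and 21.3% lower. Dusp8 fell from 4.08 ± 2.09 CPM to 1.03 and 0.0491 CPM, the latter under the 3-count limit (adjusted p = 0.0112, and 0.0811 without PMC-306). Dusp6 had 205 and 259 CPM in the lines against 228 ± 26.8 in the primary cultures (adjusted p = 0.922). Dusp5, which shares the promoter arrangement described above, stood at 29.9 CPM for PMC-306 but 4.198 for PMC-303, with 2.00 to 6.40 CPM over the primary cultures (log2 fold 1.69, SE 0.69, adjusted p = 0.0941). Sik3, with the same arrangement, had 42.6 and 45.9 CPM, both within the primary range of 39.3 to 47.8 CPM.

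Among 9 tested textbook targets of AP-1 and EGR factors, 1 was higher and 1 lower, with a median log2 fold of 0.28. Vegfa, the angiogenic growth factor, rose from 19.9 ± 4.02 to 42.9 CPM in PMC-303 and 41.1 in PMC-306 (log2 fold 1.10, SE 0.20, adjusted p = 0.00363). Ccnd1, which encodes cyclin D1, fell from 634 ± 248 to 205 and 156 CPM (log2 fold -1.74, SE 0.34, adjusted p = 0.00505). Il6 had 25.0 and 49.5 CPM against 28.6 ± 3.23 (adjusted p = 0.338), and Tnf had 38.4 and 43.7 CPM against 34.1 ± 4.84 (adjusted p = 0.196).

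**Figure D5:**
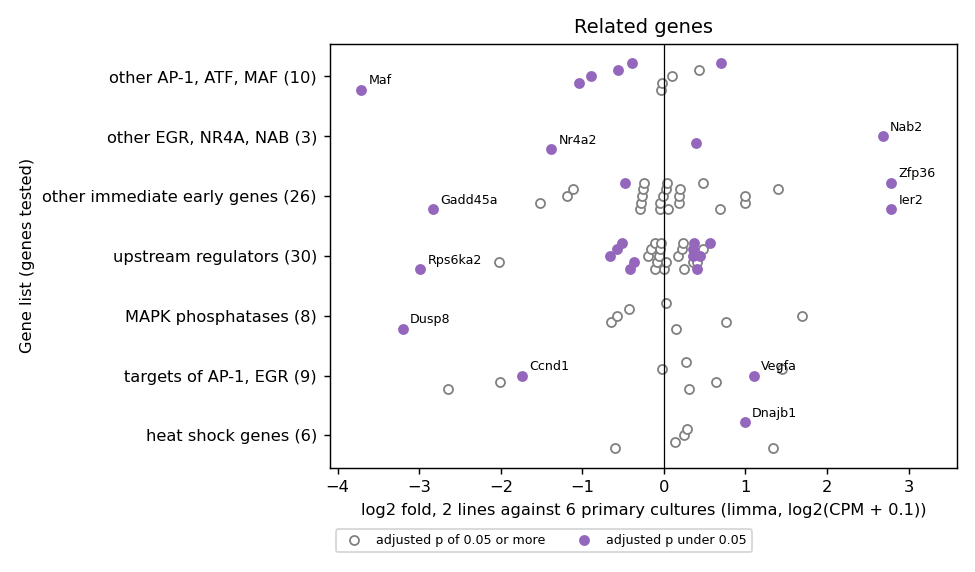
log2 fold of the 2 lines against the 6 primary cultures by limma for the tested genes of 7 lists of related genes, with filled circles for adjusted p under 0.05. Nab2 (2.69), Ier2 (2.79) and Zfp36 (2.78) lie far to the right, and Maf (-3.71), Dusp8 (-3.20) and Rps6ka2 (-2.99) far to the left.

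Among the genes whose levels were most like those of Egr1 over the 8 libraries, out of 10079 non-member genes averaging 5 CPM or more, were Lpxn (r = 0.984), Pik3r2 (0.983), Gm4316 (0.971) and Tmem109 (0.970). For Fos they were Arhgap35 (r = 0.987), Pag1 (0.984), H1f0 (0.968), Lpxn again (0.967) and Nop56 (0.966). These correlations are descriptions on the log2 scale and rest on the same 8 libraries, in which the 2 lines lie at one end. Pag1, a membrane adaptor of SRC family kinases, had 35.0 and 55.6 CPM in the lines against 20.1 ± 4.66 (SD, n = 6) in the primary cultures.

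The members lie on 10 different chromosomes. In build GRCm39 they are Jun (chromosome 4, 94937271 to 94940459), Fosl2 (chromosome 5, 32292707 to 32315186), Fosb (chromosome 7, 19036621 to 19043976), Junb (chromosome 8, 85701113 to 85705359), Egr2 (chromosome 10, 67371305 to 67378018), Fos (chromosome 12, 85520658 to 85524047), Egr3 (chromosome 14, 70314350 to 70320063), Nr4a1 (chromosome 15, 101151980 to 101172681), Egr1 (chromosome 18, 34992876 to 34998049) and Fosl1 (chromosome 19, 5497575 to 5505974). All are protein-coding genes. The 10 nearest genes with at least 1 CPM on each side of a member show how its surroundings stood. Around Jun the 20 neighbours had a median log2 fold of -0.84 in PMC-306, close to the -0.69 of Jun, and 14 of them were below all 6 primary cultures. In PMC-303 the same neighbours had a median of 0.13, and Jun was at -0.07. Around Junb the median was 0.21 in PMC-303, where 13 of 20 neighbours were above all primary cultures, and -0.12 in PMC-306. Over the other 8 members the neighbours' medians lay between -0.25 and 0.09 in PMC-303 and between -0.40 and 0.17 in PMC-306. Around these 8, from 3 (Fosl2) to 13 (Fosb) of the 20 neighbours were below all primary cultures in PMC-306. The study's karyotypes had a heterozygous deletion within chromosome 4 in PMC-306, which PMC-303 lacked. What a difference in copy number contributes to the Jun level was not tested.

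All 8 libraries carried mast cell transcripts, but less in the lines: 8 mast cell markers summed to 39024 CPM in PMC-303, 35753 in PMC-306 and 46254 to 74892 in the primary cultures. Below all primary cultures in both lines were Kit (1946 and 2055 CPM against at least 3359), Fcer1a (2480 and 1323 against at least 3789) and Tpsb2 (177 and 20.9 against at least 2857). Cpa3 was within the primary range in both lines, and Ms4a2 and Cma1 were within it in PMC-303 and below it in PMC-306. Hdc was above all primary cultures in PMC-303 (42.4 CPM against at most 18.1) and within their range in PMC-306. Gata2 was within the range in PMC-303 and above it in PMC-306 (662.3 CPM against at most 599.8). The summed level of B cell, T cell, eosinophil and neutrophil, fibroblast or mesothelial markers was at most 0.295 CPM in any library. Macrophage markers summed to 441 for PMC-306, 7.16 for PMC-303 and 7.22 to 68.7 CPM in the primary cultures. Of that sum in PMC-306, Adgre1 gave 426 CPM, while Csf1r, Cd14, C1qa and C1qb were each at 0.0982 CPM or less. Heat shock genes, which respond to handling, summed to 3678 CPM in PMC-303, 3145 in PMC-306 and 2650 to 3361 CPM in the primary cultures, and of 6 tested 1 was higher and none lower (median log2 fold 0.27), with 2 calls without PMC-303 (1 higher, 1 lower) or without female culture 2 (both higher) and 3, all higher, without PMC-306. The called gene was Dnajb1, at 70.5 and 94.2 CPM against 40.9 ± 1.38 (adjusted p = 0.000266). Most of the heat shock sum came from Hspa8 (2280 and 2223 CPM in PMC-303 and PMC-306) and Hsp90aa1 (1220 and 738), so it says little about the others. Hspa1b had 2.84 CPM in PMC-303, above the primary maximum of 0.783, and 0.651 in PMC-306, within the primary range. Hspa1a was within its primary range in both lines. Mitochondrially encoded genes took 2.41% and 2.32% of the counts of PMC-303 and PMC-306 and 4.02% to 6.97% in the primary cultures. The part of these differences in the levels of the members was not tested.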

How the data were processed

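RNA-seq libraries of 8 mouse PMC cultures (2 lines with 1 library each, 3 female and 3 male primary cultures) were made with a stranded total RNA kit. Per the labels and the study's methods, the authors trimmed reads with Trim Galore 0.6.7, aligned them with STAR 2.7.9a to GRCm39 and quantified them with Salmon 1.5.2. The deposited gene and transcript count tables and TPM tables had passed through a spreadsheet that moved decimal points and turned numbers into dates. In all, 3.37% of gene count cells and 20.8% of TPM cells had been rewritten and were restored. The decimal point of 9366 TPM cells was placed with the help of the counts, so TPM is not independent of CPM. After this, 99.7% of all gene counts lay within 0.2 of the sum of their transcripts. Cells with a day and month had been read by nearness to that sum, and most counts were never rewritten. The share therefore says little about the restored cells. Because the cells are restored estimates, no count model was used.

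CPM were computed with trimmed-mean-of-M-values library sizes, and genes were tested with limma 3.58.1 (trend) on log2(CPM + 0.1), Benjamini-Hochberg adjusted over all genes with at least 10 counts (scaled to the median library) in as many libraries as the smaller group and 15 in all. The fit was tested on simulated data with known changes. Correlations used exact permutation. Promoters were read from GRCm39 at GENCODE M39 canonical starts, and 98.9% of the gene IDs were found in that annotation. No protein sequences were used here. p-values measure the spread between these cultures (the labels call the primary ones biological replicates).

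The members and all gene lists were chosen with earlier results of these data known. The text names all members, up to 6 called genes of each list by size of the log2 fold, the exceptions a statement needs, and genes from the 5 most correlated with Egr1 and with Fos. Some items that these rules select are not reported here. Jund, Atf3, Myc, Ier3, Mapk3, Il6, Tnf, Sik3 and the uncalled phosphatases were named after their values were seen. Alternatives were other normalizations, TPM, an offset of 1 CPM, no filter, single libraries left out, cultures of 1 sex, and the replicate number as a block.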

Additional observations from a re-analysis of the deposited data

Results flagged for a closer look

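Fosl2 lay on opposite sides of the primary cultures in the 2 lines in CPM. Its log2 fold against the primary mean was -0.21 in PMC-303, below all 6 primary cultures, and 0.57 in PMC-306, above all 6. PMC-303 lay within the primary range by library totals (93.6 CPM against 89.0 to 115.2) and in TPM (16.9 against 15.7 to 20.9), where PMC-306 was still above it. Each line has 1 library, so the difference between the lines was not tested. No member had a primary culture standing apart from the other 5 by Dixon's criterion for 6 samples. Jun came close to the limit, with 73.9 CPM in male culture 2 against 48.2 in the next culture and 32.7 in the lowest.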

How the results depend on the processing

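The same 7 members were above all primary cultures in both lines under median-of-ratios size factors, library totals and TPM. The TPM were restored in part with the counts, so they are not an independent measure. With cultures of 1 sex alone or 1 primary culture left out, no member was added. None could be lost there, because fewer primary cultures can only lower the highest of them, so these settings say nothing about stability. Of 240 recomputed member folds, none beyond the primary range changed sign and 231 moved by less than the SD between primary cultures. The 9 that moved further all came from library totals, TPM or the offset of 1 CPM. Most of the 240 folds only changed which primary cultures entered the mean. Such a change can hardly move a fold by that SD, so the count of 231 says little about stability. An offset of 1 CPM lowered the log2 folds of PMC-303 to 1.99 for Egr2, 1.93 for Egr3, 2.31 for Fos and 2.60 for Fosb, and those of PMC-306 to 5.14, 6.21, 4.10 and 4.22. With TPM the Nr4a1 fold in PMC-306 was 3.88. Of the related genes, 29 were called (13 higher, 16 lower), and 34 (20 higher, 14 lower) under library totals, which raised the median of all genes from -0.01 to 0.10. Only 10 were called against female cultures alone and 18 against male cultures alone, where fewer samples entered, and 25 to 30 with 1 library left out. Of the 29, 19 were among the 30 calls without PMC-303 and 20 among the 28 without PMC-306. No member was called between the sexes in any setting, including the replicate block (0 calls, and 5 over all genes). Deviations of same-numbered female and male cultures correlated at 0.403, -0.219 and 0.279, values given without a test. The labels do not say whether a number marks a shared day, and these values cannot decide it. The 45 pairs also gave 0 calls in 4 settings chosen after seeing the data, but with 6 cultures a single pair cannot adjust below 0.125, so this says nothing about stability. Depth limits Fosl1 (2 to 11 counts) and the lowest Egr2, Egr3 and Fos values.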
